A study of Mus musculus with 12 samples.

Results

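The genes of cholesterol and fatty acid synthesis were taken as a list of 33 members: 18 enzymes of the sterol branch, 9 enzymes of the fatty acid branch, and 6 regulators or carriers (Srebf1, Srebf2, Scap, Insig1, Insig2 and Stard4). They were found by gene name among the non-control probes of the array, with Sc4mol read as the older name of Msmo1. All 33 were present among 30118 names on the array, through 50 probes, of which 42 were well above background in 4 or more of the 12 scanned channels. Each member kept at least 1 such probe, and its brightest probe stood for the gene. The pituitaries came from C57BL/6J female mice aged 2 months, with no transgene or mutation named in the labels. The early life group (4 mice) had lacked dietary vitamin D only during early life, the peripubertal group (4 mice) only around puberty, and the control group (4 mice) had eaten a normal diet. Vitamin D status of the animals was not analysed here.

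Cells build cholesterol from acetyl-CoA by way of mevalonate, the isoprenoid farnesyl diphosphate, squalene and lanosterol, and build fatty acids from acetyl-CoA by way of malonyl-CoA, elongation and desaturation. Both branches are driven by the SREBP factors, which are made from Srebf1 and Srebf2. When membranes hold little sterol, the escort protein Scap carries the SREBPs from the endoplasmic reticulum to the Golgi for activation, and the Insig proteins hold that step back when sterol is plentiful. In a hormone-secreting gland these lipids furnish the membranes of the secretory pathway.

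The 6 arrays held 2 animals each, array-mates being of 1 diet group with a dye apiece. Animals 1 and 2 of a group shared an array, as did animals 3 and 4. Both control arrays lay on 1 slide, and the other slide held the 4 arrays of the deficient groups. Diet and slide therefore cannot be told apart in a comparison with control, while early life and peripubertal animals shared a slide. Spots marked as outliers by the scanner software made up 6.54% to 7.34% of early life arrays, 3.85% to 5.08% of peripubertal arrays and 1.68% to 1.90% of control arrays. A marked spot has no value for either animal of its array, and 10 of the 33 members lacked a value on at least 1 array. Gh, Prl, Pomc, Cga, Tshb and Lhb, the hormone genes that define the gland, were well above background in all 12 channels. In the authors' value table, the early life columns equal channels scanned for peripubertal animals and the reverse, in all 8 cases. Here an animal's group is that of its scanner file. By the table's own assignment, each value given for early life would be a peripubertal value and the reverse.

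No member passed the threshold of 0.05 on the Benjamini-Hochberg adjusted p of limma in any of the 3 comparisons. Most sterol enzymes had lower means, and most fatty acid enzymes higher means, in early life animals than in control animals. Of 18 sterol enzymes, 14 had a lower and 4 a higher mean, with a median log2 difference of -0.14. Of 9 fatty acid enzymes, 7 had a higher and 2 a lower mean, with a median of 0.31. The 6 regulators and carriers had a median of -0.36, with 2 higher and 4 lower. Over all genes tested the median was 0.03, with 53.5% of genes higher. The sterol median turned to 0.16 when outlier spots were left out before the scaling between arrays, a setting in which the median of all genes stood at 0.31. All levels and differences are on the log2 scale of background-corrected intensity, where 1 unit is a 2-fold difference. Because these are whole glands, fewer cells of a type and less RNA per cell cannot be told apart.

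Peripubertal animals stood nearer to control animals: the median log2 difference was -0.01 over the sterol branch (8 higher and 10 lower) and 0.08 over the fatty acid branch (6 higher and 3 lower), against 0.01 over all genes. Between early life and peripubertal animals, on the same slide, the medians were -0.10 for the sterol branch (7 higher and 11 lower) and 0.18 for the fatty acid branch (6 higher and 3 lower), against 0.03 over all genes. Without scaling between arrays the fatty acid median turned to -0.24, where that of all genes was -0.36. These are descriptions, not tests, and the lower sterol branch was already known from earlier results of these data.

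For early life against control, limma called 0 of 33 members, where 0.125% of all 18383 genes tested were called. Unadjusted p-values under 0.05 were found for 7 of 33 members (21.2%), against 17.3% of all genes. The groups did not overlap for 6 members (Acly, Fasn, Pmvk and Scap higher, Acaca and Sc5d lower), and 15.1% of all genes had groups that did not overlap. For peripubertal against control, 0 members were called (0.0213% of all 18767 genes). There, 1 of 33 members had an unadjusted p under 0.05 (3.03%), against 5.12% of genes, and 2 members did not overlap (Fads1 and Fdps, both higher), against 9.24% of genes. For early life against peripubertal, 0 members were called (0.356% of all 18238 genes), 9 had an unadjusted p under 0.05 (27.3%, against 20.3% of genes), and 8 did not overlap, against 22.4% of genes. These 8 were Acly, Fasn, Pmvk and Sqle, higher in early life, and Fads1, Fdft1, Fdps and Srebf2, lower in early life. The members' shares thus lay near those of all genes. Of the non-overlapping members, Acly, Pmvk and Fads1 had values in only 2 animals of each deficient group. Sqle had values in only 2 early life animals, and Fdft1 in only 2 peripubertal animals. Groups with fewer values overlap less readily.

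The count of called members depended on how outlier spots and shared arrays were handled. When outlier spots were left out before the arrays were scaled to each other, and not after, 7 members were called for early life against control (Scap, Pmvk, Fads2, Fasn, Msmo1, Acss2 and Acly, all higher) and 2 for early life against peripubertal (Pmvk and Fads2, both higher). In that setting 19.1% and 3.72% of all genes were called, and the median of all genes stood at 0.31 and 0.19, so 7 of 33 members is near the share of all genes. That order was the first one tried, and the other was taken for all values here after both counts of calls had been seen, because the marks fell on bright spots far more often on early life arrays (22.9% to 24.2% of the brightest 25% of spots) than on peripubertal arrays (11.9% to 16.7%) or control arrays (4.77% to 5.57%). When array-mates were treated as independent, Pmvk and Sc5d were called for early life against control, and Fdps, Srebf2, Fads2 and Pmvk for early life against peripubertal, where 3.29% and 7.26% of all genes were called. With only the 8 samples of the deficient groups in the fit, Fdps alone was called, at an adjusted p of 0.0452, where 0.461% of all genes were called.

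**Figure D1:**
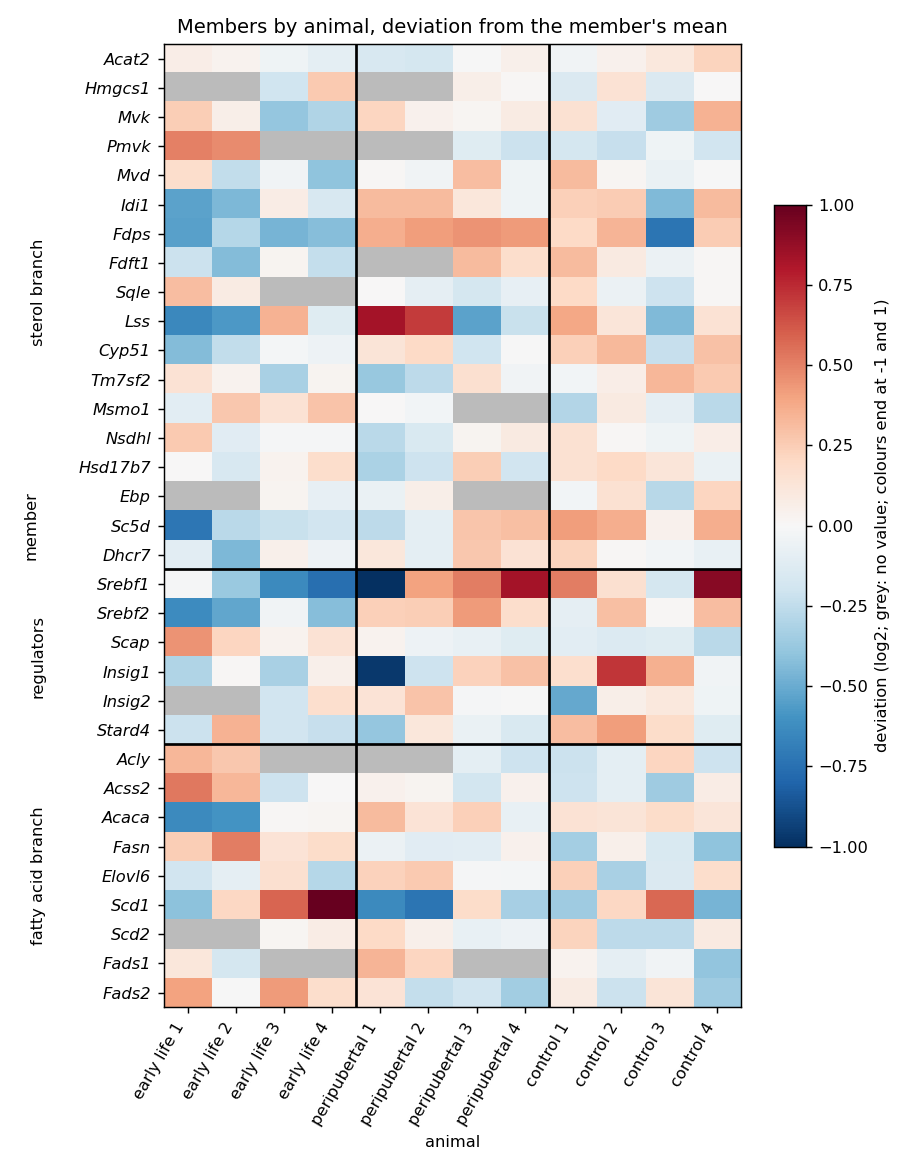
Heat map of the 33 members (rows) in the 12 animals (columns), coloured by the log2 deviation from the member's mean over all animals with a value; grey cells have no value because the spot was marked as an outlier. Fdps is blue in all 4 early life animals and in control 3, and Srebf1 and Insig1 have their lowest value in peripubertal 1.

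**Figure D2:**
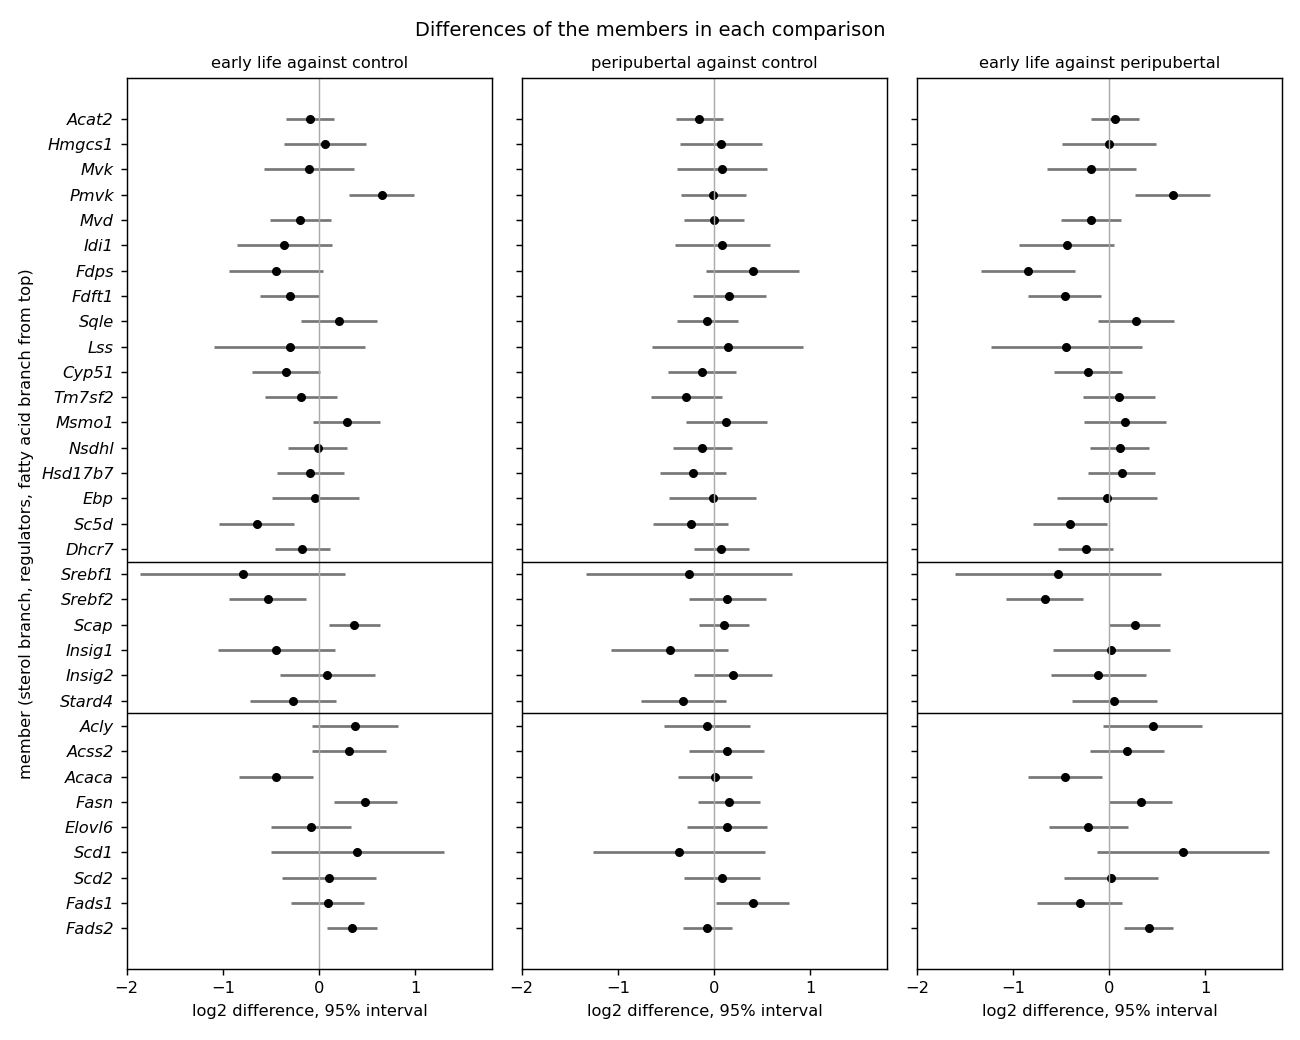
Log2 difference (points) with 95% interval (lines) of each member in the 3 comparisons, from the fit across all genes; horizontal lines separate the sterol branch, the regulators and the fatty acid branch. In early life against control, 14 of 18 sterol enzymes lie left of 0 and 7 of 9 fatty acid enzymes right of it.

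Among the enzymes from acetyl-CoA to farnesyl diphosphate, Fdps had the largest difference between the deficient groups. Fdps encodes farnesyl diphosphate synthase, which makes the precursor of squalene and of the lipid anchors on prenylated proteins, and its probe lies at chr3:88897549-88897608 on the minus strand of mm9. Its log2 levels were 11.09, 11.34, 11.16 and 11.20 in early life animals, 11.997, 12.05, 12.08 and 12.06 in peripubertal animals, and 11.83, 11.97, 10.90 and 11.88 in control animals. Every early life value lay below every peripubertal value, and control 3 lay below all 11 other animals. The difference was -0.85 ± 0.22 (SE) for early life against peripubertal, a fold of 0.556 (adjusted p = 0.0983). For early life against control it was -0.45 ± 0.22 (adjusted p = 0.323). Peripubertal against control gave 0.40 ± 0.22 (adjusted p = 0.999).

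The values of Fdps depended on control 3. Without it, limma called Fdps lower in early life against control, by -0.68 ± 0.12 (adjusted p = 0.0289), and against peripubertal, by -0.85 ± 0.11 (adjusted p = 0.00939), and 1.44% and 1.51% of all genes were called in the same fit. The difference for peripubertal against control was 0.17 without control 3. The difference against peripubertal ran from -1.23 to -0.64 over 28 alternatives, and from -0.97 to -0.80 relative to the median of all genes. Some of these alternatives, such as leaving out a control animal, cannot change the difference. Control 3 was also the lowest control animal for 8 of the 12 sterol enzymes that had a value in every animal. Its log2 level was 9.61 for Idi1, against 10.29 to 10.36 in the other control animals, 7.82 for Cyp51, against 8.28 to 8.37, and 8.31 for Lss, against 8.88 to 9.15.

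Pmvk encodes phosphomevalonate kinase. Its brighter probe gave 13.82 and 13.79 in early life animals 1 and 2, 13.19 and 13.10 in peripubertal animals 3 and 4, and 13.14, 13.09, 13.27 and 13.12 in control animals. The spot was marked as an outlier on the other array of each deficient group, so 4 animals have no value. The early life values lay above all others, by 0.65 ± 0.14 against control (adjusted p = 0.131) and 0.66 ± 0.17 against peripubertal (adjusted p = 0.114). The dimmer Pmvk probe, measured in all 12 animals, gave early life differences of 0.19 ± 0.14 against control and 0.01 ± 0.14 against peripubertal. With the mean of both probes standing for the gene, the difference against control was 0.07. For early life 3 and 4 that mean was the dimmer probe alone. The 0.07 thus also reflects missing bright spots, not only the second probe. The early life value therefore rests on 2 animals of 1 array and on 1 of 2 probes, whose first 30 bases are shown here because the probes disagree; both lie on the plus strand of chromosome 3 (mm9), the brighter at chr3:89272867-89272926 and the dimmer at chr3:89272739-89272798.
Pmvk, brighter probe: atggtggtgtttccctgtgtgtacgctctc
Pmvk, dimmer probe: ggtgttgtgttttccctggagaggacactc

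Hmgcs1, the cytosolic HMG-CoA synthase at the head of the mevalonate steps, differed little between group means. Its brightest probe is placed by the array design on an unassigned piece of chromosome 13 (mm9). Its log2 levels were 11.06 and 11.51 in early life animals 3 and 4, 11.31 and 11.26 in peripubertal animals 3 and 4, and 11.11, 11.40, 11.11 and 11.26 in control animals. The groups overlapped, with differences of 0.07 ± 0.18 for early life against control (adjusted p = 0.884), 0.07 ± 0.18 for peripubertal against control (adjusted p = 0.999), and -0.004 ± 0.21 between early life and peripubertal (adjusted p = 0.993). The 95% intervals against control, from -0.36 to 0.49 and from -0.36 to 0.50, hold differences that could not be detected with this number of arrays. Of the other enzymes on this stretch, Acat2, Mvk, Mvd and Idi1 differed by -0.09, -0.10, -0.19 and -0.36 for early life against control. Their adjusted p-values ran from 0.423 to 0.830.

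Among the enzymes from squalene to cholesterol, Sc5d, the sterol desaturase of a late step, was lowest in early life animals. Sc5d stood at log2 levels of 9.30, 9.76, 9.80 and 9.83 in early life animals, 9.76, 9.93, 10.30 and 10.33 in peripubertal animals, and 10.45, 10.39, 10.07 and 10.39 in control animals. Early life and control animals did not overlap, and the difference was -0.65 ± 0.18 (adjusted p = 0.141). The peripubertal animals split by array, with animals 1 and 2 below 10.07 and animals 3 and 4 within the control range. Against peripubertal animals the early life difference was -0.41 ± 0.18 (adjusted p = 0.226), and peripubertal against control gave -0.24 ± 0.18 (adjusted p = 0.999).

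Fdft1, squalene synthase, commits farnesyl diphosphate to sterols. Fdft1 stood at log2 levels of 11.57, 11.35, 11.81 and 11.55 in early life animals, 12.10 and 11.97 in peripubertal animals 3 and 4, and 12.10, 11.88, 11.73 and 11.80 in control animals. All early life values lay below both peripubertal values but overlapped the control range. The differences were -0.46 ± 0.17 for early life against peripubertal (adjusted p = 0.180), -0.31 ± 0.14 for early life against control (adjusted p = 0.293), and 0.16 ± 0.17 for peripubertal against control (adjusted p = 0.999). Sqle, squalene epoxidase, ran the other way, with 11.80 and 11.57 in early life animals 1 and 2, 11.50, 11.41, 11.32 and 11.42 in peripubertal animals, and 11.69, 11.44, 11.29 and 11.50 in control animals. Both early life values lay above the peripubertal ones and within or above the control range, with differences of 0.28 ± 0.18 against peripubertal (adjusted p = 0.389) and 0.21 ± 0.18 against control (adjusted p = 0.562). Relative to the median of all genes, the Sqle difference against peripubertal ran from 0.053 to 0.36 over 28 alternatives. For peripubertal against control, Sqle differed by -0.07 ± 0.14 (adjusted p = 0.999).

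The remaining sterol enzymes named by rank of p were Tm7sf2, a sterol reductase, and Hsd17b7, a ketosteroid reductase. Tm7sf2 had log2 levels of 10.11, 9.99, 9.63 and 9.98 in early life animals, 9.58, 9.69, 10.12 and 9.92 in peripubertal animals, and 9.93, 10.03, 10.29 and 10.22 in control animals. Its second probe differed in the other direction for early life against control, by 0.28 ± 0.16, where the brighter probe gave -0.19 ± 0.17. For peripubertal against control the brighter probe gave -0.29 ± 0.17 (adjusted p = 0.999). Hsd17b7 had log2 levels of 7.53, 7.36, 7.56 and 7.70 in early life animals, 7.21, 7.32, 7.77 and 7.33 in peripubertal animals, and 7.68, 7.73, 7.65 and 7.46 in control animals. All groups overlapped, and peripubertal against control gave -0.22 ± 0.16 (adjusted p = 0.999). Both kept Hsd17b7 probes were dim, each well above background in only 9 of the 12 channels. The other sterol enzymes of this stretch were Lss, Cyp51, Msmo1, Nsdhl, Ebp and Dhcr7, with differences from -0.34 (Cyp51) to 0.29 (Msmo1) for early life against control and adjusted p-values from 0.300 to 0.967.

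Lss, lanosterol synthase, varied more between the arrays of each deficient group than between group means. Its log2 levels were 8.11, 8.18, 9.10 and 8.64 in early life animals, 9.59, 9.46, 8.22 and 8.54 in peripubertal animals, and 9.15, 8.88, 8.31 and 8.91 in control animals. The second array minus the first was 0.72 in early life and -1.15 in peripubertal animals. Array and animal pair cannot be told apart in such a difference. Lss was singled out after its values were seen.

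**Figure D3:**
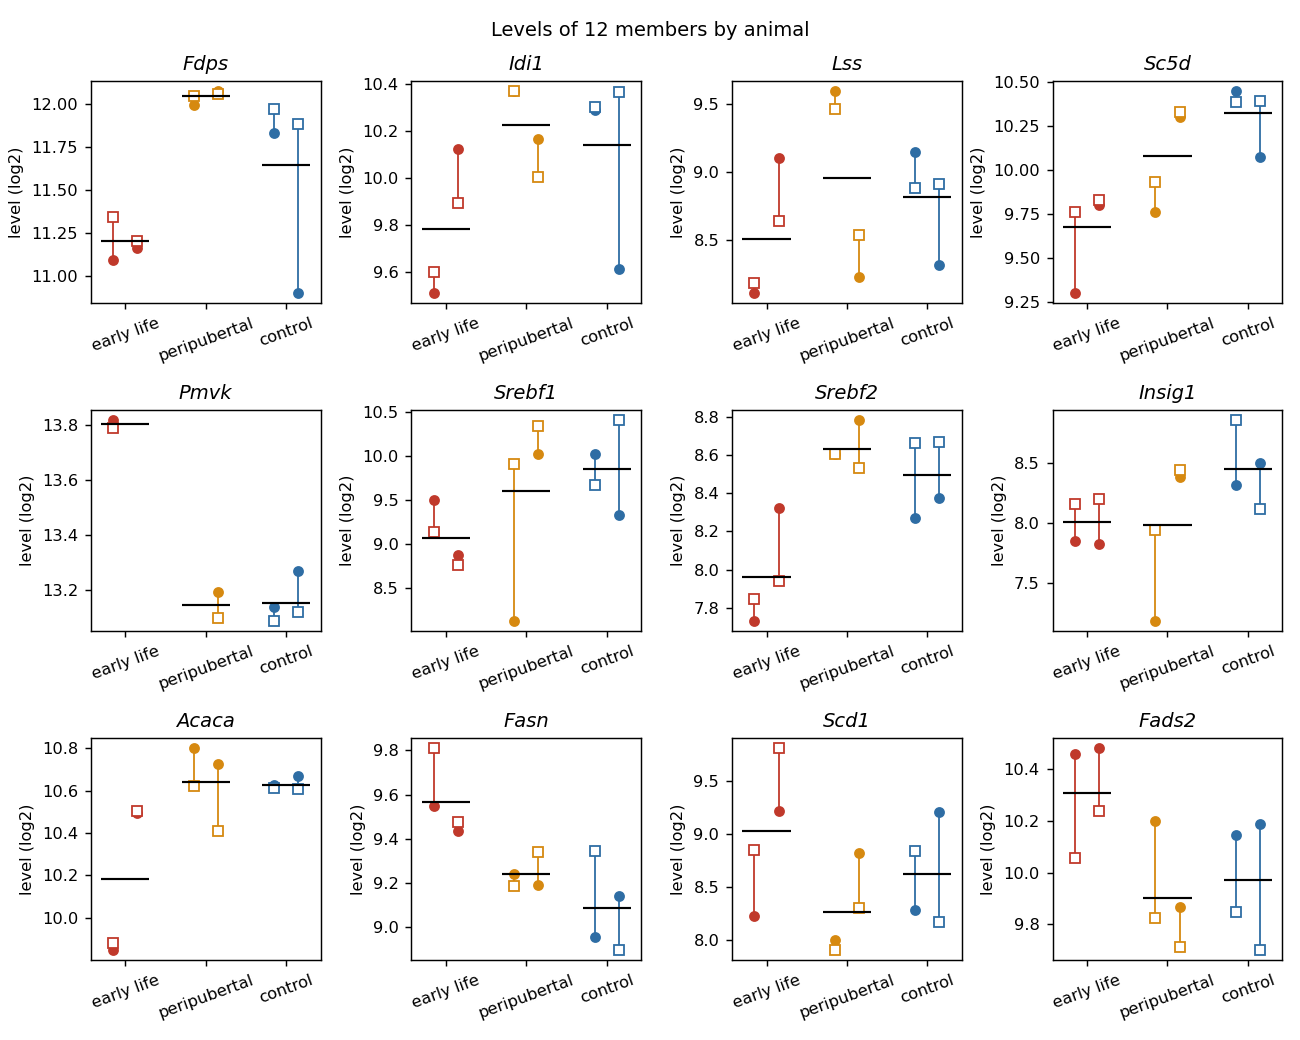
Log2 levels of 12 members by group; circles are Cy3 and squares Cy5 channels, thin lines join the 2 animals of an array, and horizontal bars are group means. Fdps separates early life from peripubertal animals, while control 3 lies below all early life values. Lss and Acaca differ between the 2 early life arrays.

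The promoters of members of both branches and of the regulators were read together for the letters of known control elements. SREBP, NF-Y and Sp1 are the textbook factors of sterol enzyme genes. The RefSeq promoter table (GRCm38.p6) held 300-base windows, 250 bases before to 50 after a start, for 26 of 33 members, in 34 windows. TCACNCCAC, a loose form of the sterol regulatory element searched on both strands, occurred in 1 of 34 member windows (2.94%), that of Hmgcs1, against 1.24% of all 32851 windows. The same letters with C for N and an A before them were in none of the member windows and in 0.0913% of all. CCAAT, bound by NF-Y, occurred in 64.7% of member windows against 37.4% of all, and GGGCGG, bound by Sp1, in 76.5% against 35.7%. TCACCCCAC, which the loose form includes, was found in Hmgcs1 as well, against 0.551% of all windows. A match is a string of letters, not a bound site, and no match says only that the letters are not in this window.

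Hmgcs1 is shown because its window, of the 34 read, holds the letters TCACNCCAC. Idi1, isopentenyl diphosphate isomerase, and Lss are shown as sterol enzymes that were low in control 3. Each runs 5′ to 3′ on its gene's strand, with TCACNCCAC and CCAAT matches on either strand in capitals: Hmgcs1 at chr13:119690101-119690400 and Idi1 at chr13:8885356-8885655, with Lss at chr10:76531355-76531654, all on the plus strand of GRCm38.p6.
Hmgcs1: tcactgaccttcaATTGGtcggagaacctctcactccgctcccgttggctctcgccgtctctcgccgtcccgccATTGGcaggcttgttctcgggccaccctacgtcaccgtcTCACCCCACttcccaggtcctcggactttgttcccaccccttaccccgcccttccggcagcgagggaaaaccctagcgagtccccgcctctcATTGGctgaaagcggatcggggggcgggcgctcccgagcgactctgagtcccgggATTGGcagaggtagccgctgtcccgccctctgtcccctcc
Idi1: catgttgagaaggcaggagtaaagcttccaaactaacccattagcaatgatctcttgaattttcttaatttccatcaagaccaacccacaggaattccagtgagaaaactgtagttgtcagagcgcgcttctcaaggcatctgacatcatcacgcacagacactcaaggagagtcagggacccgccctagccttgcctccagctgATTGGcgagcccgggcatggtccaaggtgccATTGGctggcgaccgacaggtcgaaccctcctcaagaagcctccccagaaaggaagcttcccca
Lss: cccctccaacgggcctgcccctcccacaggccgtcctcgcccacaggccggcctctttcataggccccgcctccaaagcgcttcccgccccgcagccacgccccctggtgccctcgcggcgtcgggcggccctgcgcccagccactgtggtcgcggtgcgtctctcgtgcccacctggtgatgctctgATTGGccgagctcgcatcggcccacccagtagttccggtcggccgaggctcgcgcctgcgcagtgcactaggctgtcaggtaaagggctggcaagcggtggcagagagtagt
Hmgcs1 has 4 CCAAT matches, all on the opposite strand (ATTGG in the printed line), Idi1 has 2 and Lss has 1.

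Among the regulators, Srebf2, which encodes the SREBP most tied to sterol genes, was lowest in early life animals. The log2 levels of its brighter probe were 7.73, 7.84, 8.32 and 7.94 in early life animals, 8.60, 8.60, 8.79 and 8.53 in peripubertal animals, and 8.27, 8.66, 8.38 and 8.67 in control animals. Early life lay below all peripubertal animals, and only early life 3 reached into the control range. The differences were -0.67 ± 0.18 for early life against peripubertal (adjusted p = 0.102) and -0.53 ± 0.18 for early life against control (adjusted p = 0.198). Without early life 3, limma called both, at -0.81 ± 0.15 (adjusted p = 0.0245) and -0.67 ± 0.15 (adjusted p = 0.0475), in a fit that called 6.05% and 2.83% of all genes. Peripubertal against control gave 0.14 ± 0.18 (adjusted p = 0.999).

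The second Srebf2 probe, well above background in 11 channels, differed less. It gave -0.08 ± 0.12 for early life against peripubertal and -0.18 ± 0.12 for early life against control. The mean of both probes moved the differences to -0.38 and -0.36. The first 30 bases of each probe are given because the difference of Srebf2 depends on the probe; both lie on the plus strand of chromosome 15 (mm9), the brighter at chr15:82034765-82034824 and the dimmer at chr15:82030068-82030127. The Srebf2 promoter, at chr15:82147019-82147318 on the plus strand of GRCm38.p6, holds a CCAAT match on the opposite strand (capitals) and 5 GGGCGG matches.
Srebf2, brighter probe: aactaggtctttgcaccagagagcattttg
Srebf2, dimmer probe: atccagctgttcacctgtgacctgctactg
Srebf2, promoter: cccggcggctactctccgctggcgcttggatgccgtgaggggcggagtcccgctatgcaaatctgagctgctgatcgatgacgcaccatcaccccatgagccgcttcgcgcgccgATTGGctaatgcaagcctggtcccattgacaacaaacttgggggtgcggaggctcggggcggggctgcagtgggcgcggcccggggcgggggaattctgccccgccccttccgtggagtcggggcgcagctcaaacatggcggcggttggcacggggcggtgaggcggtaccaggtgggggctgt

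Srebf1 had the widest spread of the regulators. Srebf1 stood at log2 levels of 9.49, 9.14, 8.87 and 8.75 in early life animals, 8.12, 9.91, 10.02 and 10.34 in peripubertal animals, and 10.02, 9.67, 9.33 and 10.41 in control animals. Of the 4 early life animals, 3 lay below every control animal, and peripubertal 1 lay below all 11 others. The differences were -0.79 ± 0.49 for early life against control (adjusted p = 0.414), -0.26 ± 0.49 for peripubertal against control (adjusted p = 0.999), and -0.53 ± 0.49 between early life and peripubertal (adjusted p = 0.549). The 95% interval for early life against control ran from -1.86 to 0.28. Without peripubertal 1, Srebf1 differed by 0.21 for peripubertal against control, and by -0.999 between early life and peripubertal.

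Insig1, a target of the SREBPs as well as their brake, was also lowest in peripubertal 1. Its log2 levels were 7.85, 8.16, 7.82 and 8.20 in early life animals, 7.18, 7.94, 8.38 and 8.44 in peripubertal animals, and 8.32, 8.86, 8.50 and 8.12 in control animals. The Insig1 probe was well above background in 10 of the 12 channels. Its 7.18 in peripubertal 1 lay among the levels there of member probes above background in 0 channels, 6.51 to 7.25. The groups overlapped, with -0.44 ± 0.28 for early life against control (adjusted p = 0.422), -0.46 ± 0.28 for peripubertal against control (adjusted p = 0.999), and 0.02 ± 0.28 between early life and peripubertal (adjusted p = 0.974). Without peripubertal 1, Insig1 differed by -0.24 for peripubertal against control and by -0.20 for early life against peripubertal. Insig2 had 11.27 and 11.63 in early life animals 3 and 4, 11.60, 11.75, 11.45 and 11.46 in peripubertal animals, and 10.95, 11.52, 11.57 and 11.42 in control animals. Its differences were 0.08 ± 0.22 between early life and control, 0.20 ± 0.18 for peripubertal against control, and -0.11 ± 0.22 between early life and peripubertal, with adjusted p-values from 0.800 to 0.999.

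Scap, the SREBP escort, was higher in every early life animal than in any control animal, with log2 levels of 13.93, 13.70, 13.52 and 13.63 in early life, 13.52, 13.43, 13.41 and 13.36 in peripubertal and 13.38, 13.35, 13.36 and 13.22 in control animals. The difference was 0.37 ± 0.12 for early life against control (adjusted p = 0.190) and 0.26 ± 0.12 for early life against peripubertal (adjusted p = 0.244). Stard4, a cytosolic sterol carrier, differed by -0.27 ± 0.20 for early life against control (adjusted p = 0.505) and -0.32 ± 0.20 for peripubertal against control (adjusted p = 0.999). Scap was described in full after its values were seen.

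In the fatty acid branch, Fasn and Acaca, the enzymes that build palmitate, had differences of opposite sign. Fasn encodes fatty acid synthase, which assembles the chain. Fasn stood at log2 levels of 9.55, 9.81, 9.43 and 9.48 in early life animals, 9.24, 9.19, 9.19 and 9.34 in peripubertal animals, and 8.96, 9.35, 9.14 and 8.90 in control animals. Early life lay above every other animal, by 0.48 ± 0.15 against control, a fold of 1.40 (adjusted p = 0.172), and by 0.33 ± 0.15 against peripubertal (adjusted p = 0.243). Relative to the median of all genes, the Fasn difference against peripubertal ran from 0.24 to 0.34 over 28 alternatives, some of which cannot change it. Peripubertal against control gave 0.15 ± 0.15 (adjusted p = 0.999). The Fasn promoter is shown as that of the fatty acid enzyme of smallest p against control, at chr11:120824498-120824797 on the minus strand of GRCm38.p6, with its 3 CCAAT matches on both strands in capitals, a pair of them overlapping.
Fasn: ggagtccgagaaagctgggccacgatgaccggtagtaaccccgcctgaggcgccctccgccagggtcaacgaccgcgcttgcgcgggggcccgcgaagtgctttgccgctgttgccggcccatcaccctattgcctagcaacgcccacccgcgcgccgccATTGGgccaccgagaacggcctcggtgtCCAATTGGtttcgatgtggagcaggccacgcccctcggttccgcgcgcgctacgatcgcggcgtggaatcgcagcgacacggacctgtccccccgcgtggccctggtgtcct

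Acaca encodes acetyl-CoA carboxylase, which makes malonyl-CoA for Fasn. Acaca stood at log2 levels of 9.85, 9.88, 10.50 and 10.50 in early life animals, 10.80, 10.62, 10.72 and 10.41 in peripubertal animals, and 10.63, 10.61, 10.67 and 10.61 in control animals. All 4 early life animals lay below the control range, and the first early life array lay 0.63 below the second. The differences were -0.45 ± 0.17 for early life against control (adjusted p = 0.237), -0.46 ± 0.17 for early life against peripubertal (adjusted p = 0.185), and 0.01 ± 0.17 for peripubertal against control (adjusted p = 0.999). A second probe, offset by a single base on the plus strand of chromosome 11 (mm9), gave -0.48 ± 0.22 and -0.57 ± 0.22 for the early life comparisons. The first 30 bases of both are shown with their shared run in capitals, since near-identical probes repeat 1 measurement: the brighter lies at chr11:84215093-84215152 and the dimmer at chr11:84215094-84215153.
Acaca, brighter probe: gCTTCAGTCCAATGCACTCTTCTCACGTTT
Acaca, dimmer probe: CTTCAGTCCAATGCACTCTTCTCACGTTTT

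Scd1 and Scd2 encode stearoyl-CoA desaturases, which make monounsaturated fatty acids. Scd1 had log2 levels of 8.22, 8.84, 9.21 and 9.81 in early life animals, 8.001, 7.91, 8.82 and 8.30 in peripubertal animals, and 8.28, 8.84, 9.21 and 8.17 in control animals. The groups overlapped, and the second early life array lay 0.98 above the first. The differences were 0.77 ± 0.41 for early life against peripubertal (adjusted p = 0.305), 0.40 ± 0.41 for early life against control (adjusted p = 0.640), and -0.37 ± 0.41 for peripubertal against control (adjusted p = 0.999). Leaving out 1 control animal moved the Scd1 difference for early life against control to 0.15 (without control 4) or 0.66 (without control 3), and that for peripubertal against control to -0.62 or -0.10 in the same order. Scd2 had 13.89 and 13.95 in early life animals 3 and 4, 14.07, 13.92, 13.80 and 13.82 in peripubertal animals, and 14.09, 13.61, 13.61 and 13.96 in control animals. Its differences were 0.10 ± 0.22 between early life and control, 0.08 ± 0.18 for peripubertal against control, and 0.02 ± 0.22 between early life and peripubertal, with adjusted p-values from 0.837 to 0.999.

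Fads1 and Fads2 encode the desaturases of polyunsaturated fatty acids. Fads2 had log2 levels of 10.46, 10.06, 10.48 and 10.24 in early life animals, 10.20, 9.82, 9.87 and 9.71 in peripubertal animals, and 10.14, 9.85, 10.19 and 9.70 in control animals. The groups overlapped, and the Cy5 animal of every array was lower than its Cy3 array-mate. With dye in the model the differences were 0.41 ± 0.12 for early life against peripubertal (adjusted p = 0.118), 0.34 ± 0.12 for early life against control (adjusted p = 0.207), and -0.07 ± 0.12 for peripubertal against control (adjusted p = 0.999). Relative to the median of all genes, the Fads2 difference against peripubertal ran from 0.27 to 0.43 over 28 alternatives, some of which cannot change it. The second Fads2 probe gave 0.37 ± 0.16 and 0.29 ± 0.16 for the early life comparisons. The brighter probe lies at chr19:10137760-10137819 and the dimmer at chr19:10163229-10163288 (mm9, minus strand).

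Fads1 had 11.37 and 11.08 in early life animals 1 and 2, 11.60 and 11.47 in peripubertal animals 1 and 2, and 11.29, 11.16, 11.22 and 10.86 in control animals. Its difference for peripubertal against control, 0.40 ± 0.16 (adjusted p = 0.974), was the one member difference of that comparison with an unadjusted p under 0.05. It was 0.17 when outlier spots were kept. Early life against control gave 0.09 ± 0.16 (adjusted p = 0.809), and early life against peripubertal -0.31 ± 0.19 (adjusted p = 0.384). Of the remaining fatty acid genes, Acly, the source of cytosolic acetyl-CoA from citrate, differed by 0.38 ± 0.19 for early life against control with values on 1 early life array. Acss2, which makes acetyl-CoA from acetate, differed by 0.31 ± 0.18 and the elongase Elovl6 by -0.09 ± 0.19, and adjusted p-values of these 3 ran from 0.353 to 0.844. The second Acss2 probe gave 0.07 ± 0.20, while the brighter one is the median of the branch.

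**Figure D4:**
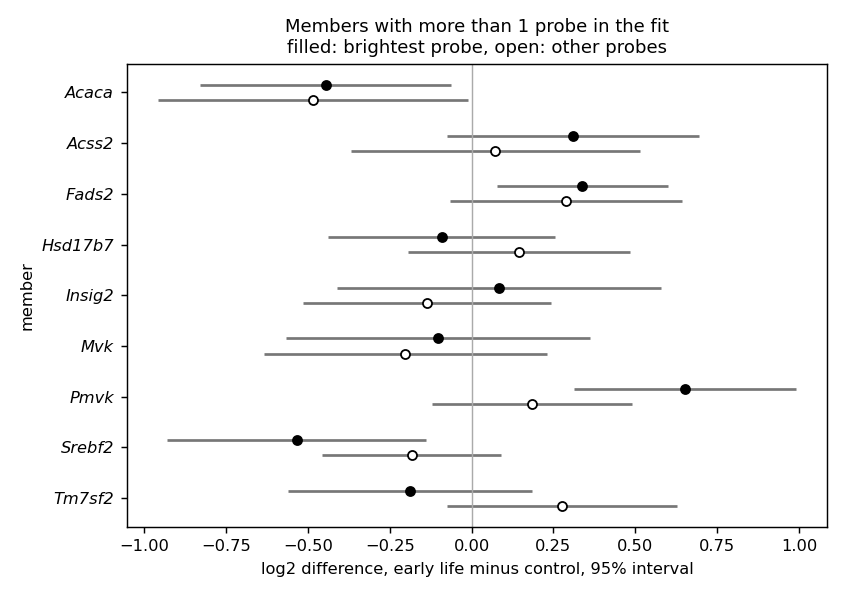
Log2 difference of early life minus control with 95% interval for the 9 members with 2 kept probes; filled points are the brighter probe, which stands for the gene, and open points the other. The probes of Acaca and of Fads2 lie close together, while those of Pmvk, Srebf2 and Acss2 lie apart and those of Tm7sf2, Hsd17b7 and Insig2 differ in sign.

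The mean deviation of a branch per animal summarises the members with a value in all 12 animals, as a description with no test. For the 12 sterol enzymes it was -0.17, -0.22, -0.08 and -0.14 in early life animals, 0.05, 0.05, 0.09 and 0.05 in peripubertal animals, and 0.20, 0.14, -0.14 and 0.18 in control animals. All early life animals lay below all peripubertal animals, and control 3 lay among the early life values. For the 6 fatty acid enzymes it was -0.01, 0.06, 0.18 and 0.21 in early life animals, 0.01, -0.11, -0.01 and -0.11 in peripubertal animals, and -0.07, -0.04, 0.04 and -0.14 in control animals. Early life 3 and 4, which share an array, were highest. Early life 1 overlapped the other groups.

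The second control array was lower than the first for 15 of 18 sterol enzymes, with a median log2 difference of -0.16 where that of all genes was 0.004. Relative to the median of all genes, the sterol branch stood at -0.17 for early life against control. Over 27 alternatives, some of which cannot change it, it ranged from -0.22 to -0.12. The fatty acid branch stood at 0.28 and ranged from 0.13, without early life 4, to 0.35. For early life against peripubertal, the sterol branch stood at -0.14 (-0.23 to -0.10 over 28 alternatives) and the fatty acid branch at 0.15, which shrank to 0.01 without early life 1.

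**Figure D5:**
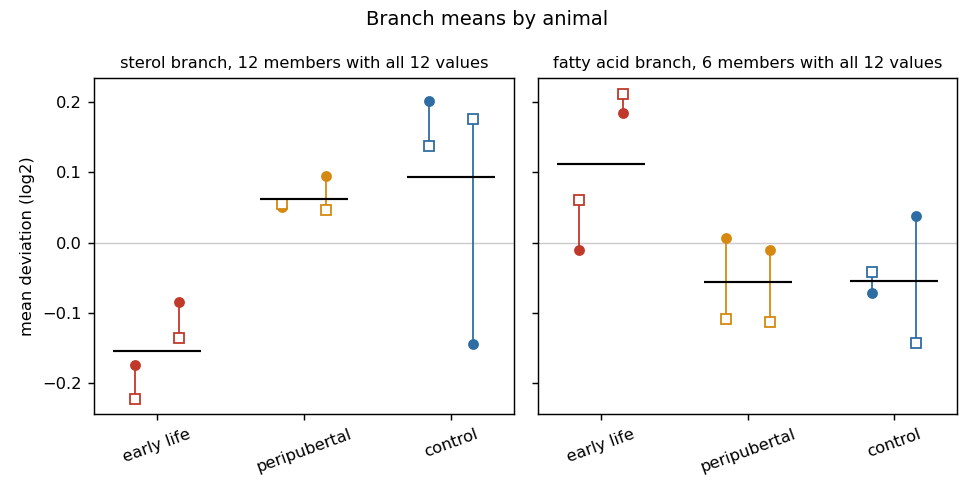
Mean log2 deviation of the sterol branch (left) and the fatty acid branch (right) by animal; circles are Cy3 and squares Cy5 channels, thin lines join array-mates, and horizontal bars are group means. The sterol branch lies from -0.22 to -0.08 in early life animals and from 0.05 to 0.09 in peripubertal animals, with control 3 at -0.14.

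With 6 animals in each dye, limma called 0 of 33 members for Cy5 against Cy3 (0.0524% of all genes), and the dye differences ran from -0.33 to 0.39 with a median size of 0.12. The lowest was that of Fads2, -0.33 ± 0.07 (adjusted p = 0.144), with Cy5 lower on 6 of 6 arrays. Fdps was 0.24 ± 0.13 higher in Cy5 (adjusted p = 0.578), on 5 of 6 arrays.

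A list of 39 other genes of sterol and fatty acid handling was read beside the members, and limma called none of the 35, 39 and 35 with values in the 3 comparisons. Hacd3, Mbtps1, Npc2 and Tecr had no early life value. Unadjusted p-values under 0.05 numbered 7, 1 and 8, and the medians were -0.04, 0.01 and -0.001, in the order early life against control, then peripubertal against control, then early life against peripubertal. Nus1, a subunit of the prenyltransferase that uses farnesyl diphosphate to make dolichol, averaged 9.43 ± 0.26 in early life animals (SD, n = 4), 10.19 ± 0.16 in peripubertal animals and 10.45 ± 0.36 in control animals. Early life lay below every other animal, by -1.02 ± 0.22 against control (adjusted p = 0.108) and -0.76 ± 0.22 against peripubertal (adjusted p = 0.119). With the mean of its probes the differences were -0.49 and -0.29. Nus1 was called against control with no array block, without control 3 and without early life 3, and against peripubertal with no array block.

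Mlxipl, which encodes the glucose-responsive lipogenic factor ChREBP, averaged 11.48 ± 0.44 in early life animals and 10.53 ± 0.19 in peripubertal animals (SD, n = 4 each). The groups did not overlap, and the difference was 0.95 ± 0.24 (adjusted p = 0.0974). Mlxipl was called in 3 of 28 alternatives. Dgat1, a triglyceride synthesis enzyme, differed by -0.45 ± 0.15 for early life against control (adjusted p = 0.195) and -0.50 ± 0.15 against peripubertal (adjusted p = 0.123). Dgat1 was called in 0 of 27 alternatives against control and in 1 of 28 against peripubertal. Stard3, a late endosomal sterol transporter, differed by -0.49 ± 0.14 for early life against control with 2 early life values (adjusted p = 0.170). For peripubertal against control the smallest p-values were those of Hsd17b12 (-0.41 ± 0.16), Soat1 (-0.30 ± 0.14) and Fntb (0.33 ± 0.17), with adjusted p-values from 0.902 to 0.999.

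Markers of other cells that make or store lipid, or that differ in number, were read in the same animals. Of the adipocyte list, Adipoq, Plin1 and Car3 were well above background in 0 of 12 channels and Cidec in 1. Fabp4 and Retn were measured. Their mean deviation ran from -0.73 to 0.30 in early life, -0.29 to 0.45 in peripubertal and -0.03 to 0.82 in control animals. The mean describes neither gene, since the early life differences had opposite signs. Fabp4 gave -1.63 against control and -1.96 against peripubertal, and Retn gave 0.36 and 0.58. All 9 myelin genes were measured, and their mean deviation ran from -0.19 to 0.61 in early life, -0.27 to -0.04 in peripubertal and -0.24 to 0.11 in control animals. The 5 erythroid genes ran from -1.30 to 0.02 in early life, 0.29 to 1.74 in peripubertal and -1.05 to 1.08 in control animals, so early life lay below peripubertal as it did for the sterol branch. Their part in the branch differences was not tested. The liver and adrenal markers Alb, Star, Cyp11a1 and Hsd3b1 were below the detection rule, with Cyp11a1 and Hsd3b1 above background in 0 channels.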

How the data were processed

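Each of 6 Agilent 2-colour arrays held 2 pituitary RNA samples, 12 in all. The scanner files hold spot and background intensity that, per the file headers, came from Feature Extraction 11.0.1.1, with probe positions on mm9. The authors' deposited value table holds log2 values whose columns have a median of 0; its centring step is not given in the sources used here, and its 4 control columns equal no scanned channel.

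Intensity was corrected with normexp (offset 50), scaled by loess within and Aquantile between arrays in limma 3.58.1 (R 4.3.3), and taken as log2. Control features were left out, and outlier spots were left out after the scaling, an order chosen after both orders had been run. Of 39429 probes, 24605 were kept because 4 or more of 12 channels were well above background, and the brightest stood for each of 19095 genes. Probes were named by accession (27324), symbol (3518) or synonym (551), with 8036 unmatched, and were not realigned. The limma model held fixed terms for diet group and for dye, and a random block for the array (correlation 0.31), two-sided, with Benjamini-Hochberg adjustment over all genes of a comparison. The number of arrays limits the precision: over all genes tested, the median SE of a difference was 0.18 to 0.19. The fitting code was tested on simulated data.

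The members and lists were chosen with earlier results of these data known. Values in every animal were given for members past the threshold, for the 3 sterol and 3 fatty acid members of smallest unadjusted p in each comparison, and for Srebf1, Srebf2, Insig1, Insig2, Scd1, Scd2, Fasn, Hmgcs1 and Sqle; other members shown in full were chosen after their values were seen. Related genes were named by the 3 smallest p-values in each comparison. Alternatives covered background correction, scaling, outlier spots, filters, probes of a gene, the array block, the samples fitted, the value table and each animal left out. The mean of probes took whichever probes had a value in an animal. Some alternatives cannot change the point estimate of a comparison. They are no array block, array means, only the samples compared, and leaving out an animal of a group not compared. Marker lists for pituicytes, macrophages and endothelium were read too. Their mean deviations in early life, peripubertal and control animals ran from -0.27 to 0.35, -0.26 to 0.35 and -0.39 to 0.03 for pituicyte genes, from -0.43 to 0.13, -0.27 to 0.61 and -0.34 to 0.46 for macrophage genes, and from -0.51 to 0.19, -0.45 to 0.22 and -0.13 to 0.41 for endothelial genes.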

Additional observations from a re-analysis of the deposited data

Results flagged for a closer look

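A value stood far from the other 3 of its group, by the gap to its nearest neighbour over the group's range, in 9 of 90 groups examined (10%). Chance gives about 5% for independent groups. These groups are not independent, since the same animals recur and the branch means repeat member values, so the share is a description. Of the 9, 4 were sterol enzymes in control 3, all low: log2 9.61 for Idi1 (nearest control 10.29), 10.90 for Fdps (nearest 11.83), 7.82 for Cyp51 (nearest 8.28) and 10.07 for Sc5d (nearest 10.39). Sc5d was also low in early life 1, at 9.30 (nearest 9.76). Stard4 was high in early life 2, at 9.15 (nearest 8.61). In peripubertal 3, Mvd was high at 9.21 (nearest 8.91), Acss2 was low at 9.21 (nearest 9.41), and the mean deviation of the sterol branch was high at 0.0944 (nearest 0.0542).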

How the results depend on the processing

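Animals were grouped by scanner file in every setting, and each column of the authors' deposited table took the group of its equal channel. No setting listed here changed the direction of either branch relative to the median of all genes for early life against control or against peripubertal. Under the deposited table's own group names, its differences between early life and peripubertal would have the opposite sign. The cause of each change below was not tested. Genes called in the 3 comparisons (early life with control, peripubertal with control, early life with peripubertal) numbered 1, 0 and 5 with median centring, 13, 0 and 7 with outlier spots kept, 3512, 0 and 679 with them left out before the scaling, 0, 0 and 1 with all 12 channels above background, 131, 20 and 172 with the mean of probes, 605, 20 and 1324 with no array block, and 13, 0 and 39 with array means. Processed signals gave 48 and 35 for the early life comparisons, no scaling 1 and 0 against control, and only the samples compared 11 and 10 against control. Quantile scaling gave 18 and no filter on dim probes 29 for early life against peripubertal, where 146 came from the authors' deposited table, and no filter gave 0 for peripubertal against control. The replicate numbers share no source in the labels and did not pair the animals (correlations of deviations from -0.18 to 0.13); with a replicate block in place of dye, 10, 0 and 6 genes were called.

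Members called were 7 against control and 2 against peripubertal animals in the early life comparisons with outlier spots left out first, 2 and 4 with no array block, and 1 for early life against peripubertal with only the samples compared. Sterol medians, in the same 3 comparisons, moved to 0.16, 0.16 and 0.0835 with outlier spots left out first and to -0.35, 0.29 and -0.49 with no scaling, and against control to -0.0333 and 0.19 with median centring. Fatty acid medians moved to 0.66, 0.21 and 0.37 with outlier spots left out first and to 0.15, 0.39 and -0.24 with no scaling, against control to 0.47 and 0.29 with median centring, to 0.19 and 0.0528 in the early life comparisons with the mean of probes, to 0.18 for early life against control with outlier spots kept, and to 0.29 for early life against peripubertal with processed signals. The median of all genes stood at 0.17, 0.14 and 0.05 with median centring and -0.14, 0.24 and -0.36 with no scaling, and at 0.31, 0.13 and 0.19 with outlier spots left out first.

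Leaving out 1 animal at a time gave 6 (without control 4) to 521 (without early life 3) genes called for early life against control, 0 to 3 for peripubertal against control, and 6 (without control 4) to 1103 (without early life 3) for early life against peripubertal. Members called ranged from 0 to 1, 0 to 0 and 0 to 1. Sterol medians ranged from -0.19 to -0.11, -0.10 to 0.04 and -0.18 to -0.07, and fatty acid medians from 0.15 to 0.34, 0.02 to 0.13 and 0.0422 to 0.27.

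Of single genes, 24 differences turned sign under other settings, of which 14 did not turn relative to the median of all genes in that setting, among them Fads2, Fasn, Fdft1 and Tm7sf2, with Sqle between early life and peripubertal. For early life against control, these were Fdft1 (0.0513, outlier spots left out first), Scd2 (-0.12, outlier spots kept) and Insig2 (-0.24, mean of probes). In that mean, early life 1 and 2 held the dimmer Insig2 probe alone, since the brighter one had no value there. For peripubertal against control, Sqle turned to 0.15 (median centring), 0.25 (no scaling) and 0.10 (outlier spots left out first), Tm7sf2 to 0.0288 and Srebf1 to 0.0362 (no scaling), and Hmgcs1 to -0.0048 (processed signals). For early life against peripubertal, no scaling gave -0.0283 for Fads2, -0.0879 for Fasn, -0.41 for Insig1, -0.28 for Scd2 and -0.17 for Sqle. There Hmgcs1 turned to 0.27 (processed signals), 0.0516 (outlier spots kept) and 0.30 (left out first), Insig2 to 0.0976, 0.0128 and 0.117 under the same settings, and Scd2 to -0.0398 (processed signals), -0.0066 (quantile), -0.20 (outlier spots kept) and -0.0514 (the authors' deposited table). Leaving out 1 animal turned 14 differences of Insig1, Insig2, Scd2, Hmgcs1 and Srebf1. Against control, early life ranged from -0.0371 to 0.20 for Insig2, -0.0014 to 0.22 for Scd2 and -0.10 to 0.23 for Hmgcs1, and peripubertal from -0.0184 to 0.20 for Scd2, -0.44 to 0.21 for Srebf1 and -0.10 to 0.24 for Hmgcs1. Early life against peripubertal ranged from -0.18 to 0.17 for Hmgcs1, -0.20 to 0.18 for Insig1 and -0.0435 to 0.0775 for Scd2.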
